A study of Mus musculus with 6 samples.

Results

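Activity-regulated immediate early genes were examined in the cortex of 5XFAD mice with and without transplanted human neurons. The set comprised 36 listed gene symbols, each found once among the 54532 gene identifiers of the count table, and all 36 were among the 17042 genes kept by the filter on low counts. They were sorted by role into 16 early transcription factors, 12 rapid regulators, the synaptic gene Arc and 7 late effectors. RNA was sequenced from 6 libraries of cortex, all from 5XFAD mice, which carry human familial Alzheimer's disease transgenes driven by Thy1 promoter elements and which deposit amyloid. The 3 control libraries carry the treatment label NC, an abbreviation that the labels do not explain, and the 3 cell-treated libraries come from mice given cell therapy, in the series title human GABAergic interneurons made from induced pluripotent stem cells. No library came from a mouse without the transgenes. The age, the sex and any sham injection of the mice are not given in the sources used here. The design text swaps the words control and experimental, so titles and the treatment label decided the groups. In the tables the control columns are named for the disease, and they were taken as controls by elimination. A mean column of a table not used here is headed AD_Treated, and if the headings were crossed every difference below would have the opposite sign. The design text names biological replicates, 3 in each group, and all libraries share 1 batch label.

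Neuronal firing raises calcium in the cell, and calcium-activated kinases then switch on transcription factors that are already present, such as CREB and SRF. These induce immediate early genes within minutes without new protein synthesis, and the products of those genes, themselves largely transcription factors, induce a later wave of secreted and synaptic proteins. In the cortex the levels of Fos, Egr1, Arc and Npas4 are widely used as marks of recent neuronal activity. In bulk tissue, fewer cells of a type and less RNA per cell cannot be told apart.

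Promoters of immediate early genes can carry elements bound by CREB and SRF. Windows of members that stood lowest and highest in 1 library are shown so that such elements can be compared. RefSeq windows of 300 bases, 250 before and 50 after a transcript start, were matched by symbol for 26 of the 36 members. Egr1, Egr3, Klf10, Arc, Vgf, Nptx2, Ier2, Dusp4, Sik1 and Trib1 had no window and were not searched. The windows below are on build GRCm38.p6, 5′ to 3′ on the gene's strand. They lie at chr12:85473640-85473939 (+) for Fos, chr19:4989922-4990221 (-) for Npas4, chr15:101266596-101266895 (+) for Nr4a1, chr1:79439977-79440276 (-) for Scg2 and chr4:95052173-95052472 (-) for Jun. Capitals mark the cAMP response element TGACGTCA or its shorter form TGACG on either strand, where CGTCA is the short form on the other strand, and the TATA box TATAA on either strand. The first 3 are early factors that had their lowest level in cell-treated library 3, and the last 2 are members that had their highest level there.
Fos: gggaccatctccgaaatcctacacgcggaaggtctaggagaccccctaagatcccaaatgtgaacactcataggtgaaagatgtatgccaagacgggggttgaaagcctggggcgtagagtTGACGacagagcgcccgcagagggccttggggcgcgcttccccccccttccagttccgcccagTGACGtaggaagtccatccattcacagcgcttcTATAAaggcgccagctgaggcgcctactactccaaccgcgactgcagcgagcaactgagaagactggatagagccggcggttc
Npas4: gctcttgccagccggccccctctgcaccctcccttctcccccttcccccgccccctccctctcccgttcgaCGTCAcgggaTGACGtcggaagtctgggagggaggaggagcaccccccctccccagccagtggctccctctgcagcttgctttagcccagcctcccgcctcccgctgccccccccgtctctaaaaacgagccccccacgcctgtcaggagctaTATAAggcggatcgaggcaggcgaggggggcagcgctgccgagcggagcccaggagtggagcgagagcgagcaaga
Nr4a1: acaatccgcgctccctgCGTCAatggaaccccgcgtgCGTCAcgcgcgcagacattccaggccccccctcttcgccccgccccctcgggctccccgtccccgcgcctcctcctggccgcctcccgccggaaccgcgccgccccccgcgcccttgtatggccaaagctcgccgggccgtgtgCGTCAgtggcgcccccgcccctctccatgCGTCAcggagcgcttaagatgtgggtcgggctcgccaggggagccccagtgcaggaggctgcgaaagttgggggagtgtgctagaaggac
Scg2: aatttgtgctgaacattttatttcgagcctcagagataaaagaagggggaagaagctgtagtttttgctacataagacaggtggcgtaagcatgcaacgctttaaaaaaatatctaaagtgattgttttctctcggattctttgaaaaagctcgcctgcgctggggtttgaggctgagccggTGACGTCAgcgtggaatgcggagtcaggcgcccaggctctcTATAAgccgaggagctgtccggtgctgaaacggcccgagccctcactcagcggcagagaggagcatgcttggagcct
Jun: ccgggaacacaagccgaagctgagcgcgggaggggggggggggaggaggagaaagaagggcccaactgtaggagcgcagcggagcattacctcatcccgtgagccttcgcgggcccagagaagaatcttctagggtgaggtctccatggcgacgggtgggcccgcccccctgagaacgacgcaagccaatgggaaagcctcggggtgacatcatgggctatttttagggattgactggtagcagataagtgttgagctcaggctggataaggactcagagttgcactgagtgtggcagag
The short form TGACG, searched on both strands, was in the windows of 18 of 26 members, 69.2%, and of 23.0% of all 27025 genes with a window. It was present for 10 of 13 early transcription factors and 4 of 5 late effectors with a window. So few late windows cannot show whether a motif separates these roles. The full element TGACGTCA, which contains the short form, was in 4 members (Btg2, Dusp1, Plk2 and Scg2), 15.4% against 2.03% of all genes. By role these were 0 of 13 early transcription factors and 2 of 5 late effectors. TATAA was in 13 members, 50% against 28.0%. The serum response element, or CArG box, was in the windows of Dusp5 and Egr2, 7.69% against 1.81%. The Jun window held none of these motifs. A match is a description of the sequence, and nothing about a factor follows from its absence in a window of this size.

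Library totals ran from 14221519 to 16696463 counts. Cell-treated library 3 stood apart, with a mean Pearson correlation with the other libraries across 17042 genes, which are not independent replicates, of 0.936 against 0.963 to 0.968. It had the lowest summed level of 5 astrocyte markers, 1040 CPM against 3507 to 6405 in the other 5. CPM are each library's counts scaled to a common total with TMM factors. Slc1a2 alone made up 699 CPM of the astrocyte sum, and 4 of the 5 markers were at their lowest there. The exception was Aldh1l1, at 112.1 CPM against 70.8 to 159.8. The summed level of 5 oligodendrocyte markers was also lowest there, 2307 against 3941 to 6908. The summed level of 6 injury and stress genes in cell-treated library 3 was 1670 against 169 to 368 in the others. Vim at 1015 CPM and Spp1 at 573 made up most of that sum, and Lgals3 was at 45.3 against 1.51 to 4.28. The stress genes differed little: Hspa1a was at 8.89 CPM against 6.69 to 10.9, Hspa1b at 13.2 against 7.09 to 12.2 and Hmox1 at 14.7 against 5.96 to 12.4. Blood genes, 5 of 5 detected, summed to 105 to 275 CPM in the cell-treated group, highest in library 3, and to 6.78 to 49.4 in controls. Excitatory neuron markers, 8 of 8 detected in every library, summed to 3454 CPM in cell-treated library 3 against 3232 to 5496 elsewhere. Camk2a alone made up 1674 CPM of that sum. Of the 8, 4 were at their lowest there, among them the layer marker Rorb at 21.9 CPM against 37.1 to 90.2. Another 2 were at their highest there, Slc17a7 at 1408.9 CPM against 844.0 to 1312.0 and Neurod2 at 96.7 against 52.5 to 74.6. Control library 3 had the highest summed level of 8 striatal genes, 1799 CPM against 337 to 715, and 1.95% mitochondrial counts against 4.49% to 8.78%. The fitted difference was negative for all 8 striatal genes, whose sum was 337 to 715 CPM in the cell-treated group and 630 to 1799 in controls. Cell-treated library 1 had 320 CPM of 6 olfactory bulb genes against 7.16 to 31.2, with Tbx21 and Eomes at 0 in cell-treated library 2. The part of these differences in the results below was not tested, and results that rest on cell-treated library 3 are given with and without it.

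No member passed the test between the groups. With edgeR's quasi-likelihood test on all 17042 genes and Benjamini-Hochberg adjustment, 0 of 36 members were called at 0.05, and the background was 0% of all genes in either direction; the smallest adjusted p among members was 0.999. Likewise 0 members had an unadjusted p under 0.05, against 0.939% of genes with higher and 1.06% with lower values in cell-treated libraries. DESeq2 called 0 members and 9 genes in all. The fitted difference was positive for 19 members and negative for 17, where 50.2% of all genes were positive and 49.8% negative. The median log2 fold change was 0.006 over the members and 0.001 over all genes. By role it was -0.056 for early transcription factors, -0.005 for rapid regulators and 0.073 for late effectors. Without cell-treated library 3 these became 0.23, -0.072 and -0.214, so the medians of the early and of the late genes changed sign, against a median of -0.018 over all genes.

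**Figure D1:**
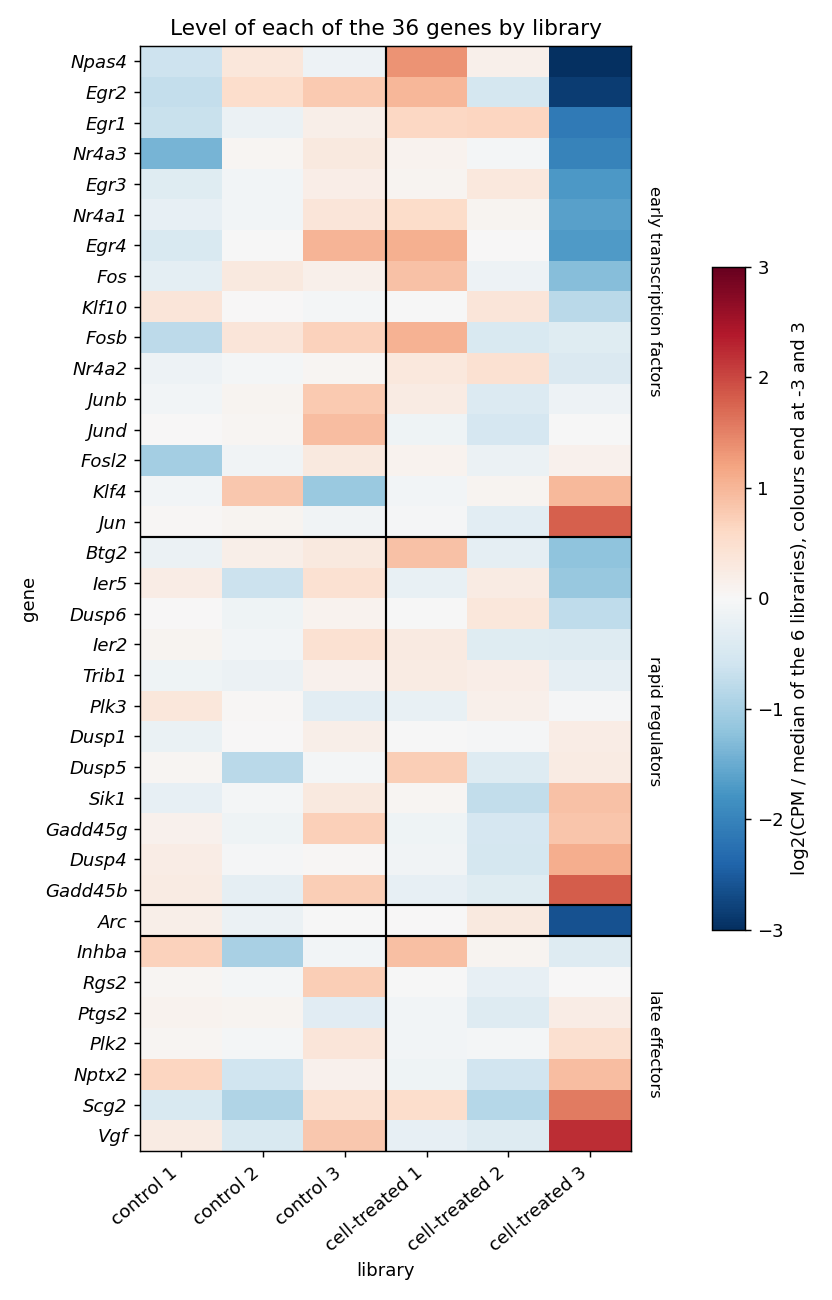
Level of each of the 36 genes (rows, grouped by role and ordered within it by the level in cell-treated library 3) in the 6 libraries (columns), as log2 of CPM over the gene's median, with red above and blue below it. Cell-treated library 3 is blue for 16 genes at their lowest level, among them Npas4, Egr2, Egr1 and Arc, and red for 12 at their highest, among them Vgf, Scg2, Jun and Gadd45b.

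Single libraries held many of the extreme values. Cell-treated library 3 held the lowest level of 16 members, 44.4%, and the highest of 12, 33.3%; among 12199 genes of at least the lowest member's mean level, 5.39 CPM, these shares were 31.0% and 31.3%. At least 2-fold below the lowest of the other 5 libraries were 7 members, 19.4% against 4.12% of genes: Egr1, Egr2, Egr3, Egr4, Npas4, Nr4a1 and Arc. At least 2-fold above the highest of the others were 4 members, 11.1% against 1.74% of genes: Jun, Gadd45b, Vgf and Scg2. None of the late effectors had its lowest level in that library, and 5 of 7 had their highest, whereas 10 of 16 early transcription factors had their lowest. Cell-treated library 1 held the highest level of 10 members, 27.8% against 13.9% of genes, among them Fos, Fosb, Egr2, Egr4, Npas4 and Nr4a1. Npas4 was at least 2-fold above every other library there, as were 0.393% of genes. Control library 3 held the highest level of 7 members, among them Junb, Jund, Ier5 and Rgs2, 19.4% against 21.6% of genes. The range over the 6 libraries, highest over lowest, ran from 1.32-fold for Dusp1, a phosphatase of MAP kinases, to 52.4-fold for Npas4.

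The Fos family supplies the inducible partner of the AP-1 dimer. Fos (chromosome 12, 85473890 to 85477273 in the deposited coordinates) was at 19.95, 29.8 and 27.0 CPM in the controls, by replicate number, and at 45.2, 22.1 and 10.01 CPM in the cell-treated group; other values per library follow this order. The highest and the lowest value both fell in the cell-treated group, so the groups overlapped, at 25.8 ± 17.9 against 25.6 ± 5.08 CPM (SD, n = 3 each) and a log2 fold change of 0.01 ± 0.476 (SE). Fosb, which gives rise to the stable splice form ΔFosB, ran from 6.63 to 23.8 CPM and was highest in cell-treated library 1. Fosl2, a Fos-related protein with a slower course, ran from 19.7 to 49.0 CPM.

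The Jun proteins, the other AP-1 partners, did not follow Fos. Jun (chromosome 4, 95049034 to 95052222) was at 50.7, 52.8 and 46.0 CPM in controls and at 48.8, 39.7 and 171.5 CPM in cell-treated libraries. The first 5 libraries were close together and cell-treated library 3 alone was high; the log2 fold change was 0.80 ± 0.511 (SE, unadjusted p = 0.158 and adjusted p = 0.999 in edgeR) and -0.17 ± 0.161 without that library. On the FPKM scale, which divides by gene length, the ratio of Jun to Fos reached 12.6 in cell-treated library 3, with 0.797 to 1.88 elsewhere. Jun made up 49.1% of the summed FPKM of the 6 Fos and Jun genes in that library and 11.9% to 21.2% elsewhere, while Fos made up 3.88% against 9.47% to 20.8%. The deposited span of Jun overlaps 689 bases of the antisense gene Junos, which had at most 95 counts over all libraries, and the kit is not stated to keep strand.

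Jund, another AP-1 partner, was the one member whose groups did not overlap, 2.78% of members against a background of 4.30% of genes with lower values. It was at 46.9, 48.0 and 87.6 CPM in controls and at 42.2, 32.6 and 45.5 CPM in cell-treated libraries. All 3 cell-treated values lay below every control, by a small margin for cell-treated library 3 and control library 1, and the high value of control library 3 set much of the difference. The log2 fold change was -0.60 ± 0.278 (SE), at an unadjusted p of 0.0627, the smallest of the set, and an adjusted p of 0.999 in edgeR. Without control library 3 it was -0.24. Junb, an inducible Jun protein, was at 44.7, 49.3 and 80.4 CPM in controls and at 55.8, 35.5 and 42.3 CPM in cell-treated libraries, a log2 fold change of -0.39 ± 0.274 (SE), or -0.08 without control library 3. Its span overlaps 351 bases of Prdx2, a peroxiredoxin gene on the opposite strand with 14648 counts over the 6 libraries, so reads there cannot be assigned to one gene.

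The Egr genes encode zinc finger factors that bind GC-rich sites, and Egr1 (ENSMUSG00000038418) had the highest mean level per length among early transcription factors, 34.4 ± 18.1 FPKM (SD over 6 libraries). Jund, the next at 30.1 ± 11.3 FPKM, lay within that spread, and the ratio of Egr1 to Jund was 0.773, 1.07 and 0.742 in controls and 2.12, 2.77 and 0.293 in cell-treated libraries. Egr1 was at 97.6, 138.0 and 174.6 CPM in controls and at 240.3, 242.8 and 35.9 CPM in cell-treated libraries. Cell-treated libraries 1 and 2 lay above every control and library 3 below every control. The log2 fold change over all libraries was 0.34 ± 0.607 (SE, adjusted p = 0.999 in edgeR). Leaving out cell-treated library 1, 2 or 3 gave 0.03, 0.01 or 0.82, and leaving out control library 1 or 3 gave 0.15 or 0.56. Egr2, the least abundant member at 1.58 ± 1.04 FPKM, had 11 counts in cell-treated library 3, or 0.684 CPM with a 95% Poisson interval of 0.342 to 1.22 that covers counting error only, and 2.97 to 9.79 CPM elsewhere. Egr3 was at 34.5 CPM in that library against 88.6 to 143.3, and Egr4 at 4.29 against 10.1 to 29.2. The 4 Egr genes summed to 18.2 FPKM there, to 46.9 to 83.8 in controls and to 97.3 and 94.1 in the other cell-treated libraries.

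Npas4, a factor of neurons that responds to calcium entry and organises inhibitory synapses on excitatory cells, varied most. It (chromosome 19, 4984355 to 4989971) was at 8.28, 16.1 and 11.5 CPM in controls and at 32.6, 14.1 and 0.622 CPM in cell-treated libraries. Cell-treated library 1 was at least 2-fold above every other library and library 3, with 10 counts (95% Poisson interval 0.298 to 1.14 CPM), was far below them all. The log2 fold change was 0.40 ± 0.951 (SE), or -0.70 without cell-treated library 1. The orphan nuclear receptors Nr4a1, Nr4a2 and Nr4a3 summed to 13.4 FPKM in cell-treated library 3 and to 26.1 to 45.0 elsewhere. Nr4a1 was at 25.5 CPM there against 66.3 to 115.6, and Nr4a3 at 4.85 against 7.46 to 24.0. Nr4a2, which also marks deep-layer cortical neurons, varied less, from 21.02 to 38.8 CPM. Among the Krüppel-like factors Klf10 was lowest in that library, at 14.4 CPM against 24.0 to 32.1, and Klf4 highest, at 10.8 against 2.56 to 9.61.

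**Figure D2:**
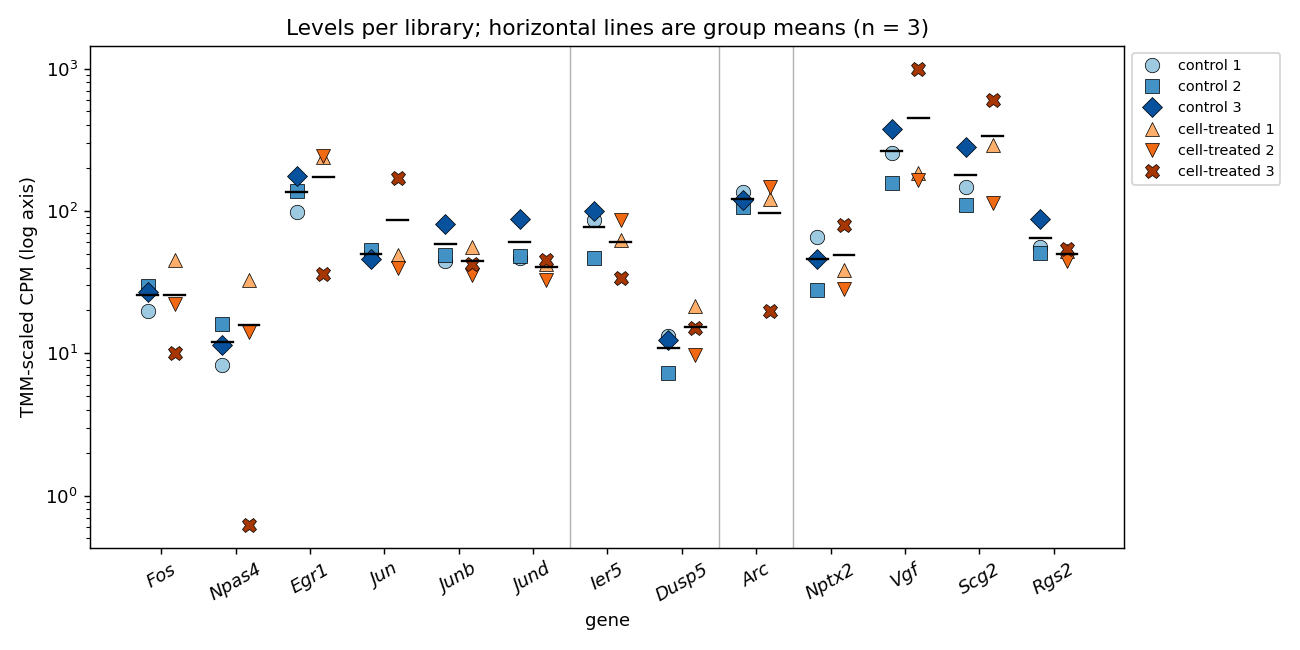
CPM on a log axis in each library for 13 genes, grouped from left to right as early transcription factors, rapid regulators, Arc and late effectors; lines are group means of 3 libraries. The cross of cell-treated library 3 is the lowest point for Fos, Npas4, Egr1, Ier5 and Arc and the highest for Jun, Nptx2, Vgf and Scg2.

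Rapid regulators, which feed back on the signals and on the growth of the cell, fell on both sides. Ier5, a nuclear protein induced by serum and stress, had the highest mean level per length among them, 20.99 ± 7.80 FPKM (SD over 6 libraries). Gadd45g, the next at 17.7 ± 6.66 FPKM, lay within that spread. Ier5 was at 85.6, 46.5 and 100.3 CPM in controls and at 62.4, 86.1 and 33.5 CPM in cell-treated libraries. The groups overlapped, with a log2 fold change of -0.35 ± 0.385 (SE). It was -0.06 without cell-treated library 3, -0.12 without control library 3, -0.62 without control library 2 and -0.69 without cell-treated library 2. Btg2, an antiproliferative co-regulator, had 7.09 CPM in cell-treated library 3 against 13.6 to 30.1. Gadd45b, a protein of the DNA damage and demethylation response, was at 12.6, 8.83 and 17.8 CPM in controls and at 9.03, 8.31 and 37.8 CPM in cell-treated libraries. Only cell-treated library 3 was high, and the log2 fold change went from 0.49 ± 0.593 (SE) to -0.60 ± 0.310 without it.

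Among the phosphatases of MAP kinases, Dusp6, which acts on ERK, was lowest in cell-treated library 3 at 29.2 CPM against 45.0 to 62.7. Dusp4, another of them, was highest there at 20.0 against 6.55 to 10.9. Dusp5, also an ERK phosphatase, was at 13.3, 7.29 and 12.3 CPM in controls and at 21.5, 9.73 and 15.1 CPM in cell-treated libraries. The groups overlapped, and the log2 fold change of 0.50 ± 0.353 (SE) became 0.18 with cell-treated library 1 left out and 0.27 with control library 2 left out. Sik1, a kinase that restrains CREB coactivators, ran from 8.58 to 26.5 CPM and Gadd45g from 12.4 to 31.6, both highest in cell-treated library 3. Ier2, Trib1 and Plk3, the last a stress-induced kinase, stayed within a 1.80-fold range.

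Arc, whose protein promotes removal of AMPA receptors from synapses and whose RNA travels to dendrites, was the most abundant early gene per length at 35.2 ± 14.8 FPKM (SD over 6 libraries), close to Egr1 within their spread. Arc (chromosome 15, 74669083 to 74672570) was at 135.1, 107.1 and 118.4 CPM in controls and at 122.0, 147.0 and 19.8 CPM in cell-treated libraries. Its 5 other libraries lay within a narrow band and cell-treated library 3 was 6.15-fold below their median. The log2 fold change was -0.32 ± 0.588 (SE) and 0.16 ± 0.169 without that library.

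Of the 7 late effectors, 5 were highest in cell-treated library 3, while Inhba was highest in cell-treated library 1 and Rgs2 in control library 3. Vgf (chromosome 5, 137026392 to 137033351), a precursor of secreted neuropeptides, was the most abundant member at 119.7 ± 110.6 FPKM (SD over 6 libraries). It was at 254.0, 156.0 and 376.2 CPM in controls and at 183.4, 165.7 and 996.1 CPM in cell-treated libraries. The single high library gave a log2 fold change of 0.77 ± 0.693 (SE, unadjusted p = 0.296 and adjusted p = 0.999 in edgeR), and it was -0.59 ± 0.339 without it. Scg2 (chromosome 1, 79434669 to 79440120), a granin of secretory granules, was at 148.0, 109.3 and 279.5 CPM in controls and at 291.4, 113.2 and 599.5 CPM in cell-treated libraries. The groups overlapped, with a log2 fold change of 0.90 ± 0.580 (SE, unadjusted p = 0.158) that was 0.18 ± 0.484 without cell-treated library 3. Vgf and Scg2 did not differ per length beyond their spread over libraries, and both lay above the next member, Arc, in mean level.

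Nptx2, a secreted pentraxin that gathers AMPA receptors on interneurons, was at 65.3, 27.6 and 45.8 CPM in controls and at 38.3, 28.2 and 79.4 CPM in cell-treated libraries. Values of the groups overlapped, at 48.6 ± 27.1 against 46.2 ± 18.8 CPM (SD, n = 3 each), and the log2 fold change was 0.07 ± 0.431 (SE), or -0.48 without cell-treated library 3. Rgs2, which shortens G-protein signals, was at 55.3, 50.5 and 87.6 CPM in controls and at 52.1, 44.4 and 53.6 CPM in cell-treated libraries, a log2 fold change of -0.37 ± 0.235 (SE), or -0.08 without control library 3. Plk2, a kinase of synaptic scaling, ran from 131.7 to 197.0 CPM and Ptgs2, the inducible prostaglandin synthase, from 10.5 to 16.2. Inhba, the activin subunit, ran from 7.22 to 26.2 CPM; its span overlaps 2 genes on the opposite strand.

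The contrast of early transcription factors with late effectors was taken within each library, as the mean over each role of log2 CPM minus the gene's mean over the 6 libraries. Early minus late was -0.40, 0.74 and 0.16 in the controls, and the cell-treated values were 0.51, 0.50 and -1.53. Cell-treated library 3 was the lowest and control library 1 the next, and the groups overlapped. The cell-treated mean was -0.17 ± 1.18 and the control mean 0.17 ± 0.570 (SD, n = 3 each), a difference of -0.34 that turned to 0.34 without cell-treated library 3; a score over chosen members was not tested. The mean over all members differed by -0.09 between the groups, while the median log2 fold change was 0.006, so the sign depends on the summary used.

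Ratios of late to early genes in FPKM also set cell-treated library 3 apart, but the order of the other libraries differed from that of the score. Vgf, Scg2, Egr1 and Arc were already named above as at least 2-fold beyond every other library there. Their ratios therefore add no separate support. Vgf to Egr1 reached 41.9 in cell-treated library 3, where controls had 1.71 to 3.93 and the other cell-treated libraries 1.15 and 1.03. Scg2 to Arc was 36.7 there and 0.936 to 2.90 in the other 5 libraries. Egr1 to Egr3, a pair of early factors, was 1.02 there and 1.08 to 1.95 elsewhere.

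**Figure D3:**
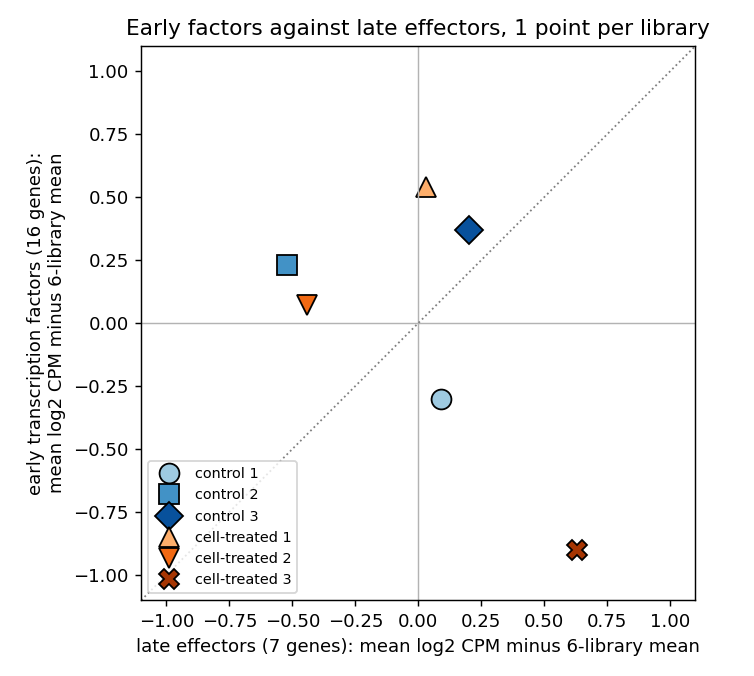
Mean level of 16 early transcription factors (vertical axis) against that of 7 late effectors (horizontal axis) in each library, both as log2 CPM averaged over genes after subtracting each gene's own mean; on the dotted line the 2 are equal. Cell-treated library 3 lies alone at -0.90 for early and 0.63 for late genes, and the other 5 libraries lie between -0.30 and 0.54 for early genes.

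Without cell-treated library 3, 2 cell-treated libraries were compared with 3 controls. Again 0 members passed edgeR's test over 17524 genes, with a background of 0% and a smallest adjusted p of 0.914. At an unadjusted p under 0.05, 3 members had higher values, 8.33% against 2.20% of genes, and 0 had lower values against 2.34%. The 3 were Egr1, with a log2 fold change of 0.82 ± 0.240 (SE, unadjusted p = 0.0102), Npas4, with 0.97 ± 0.390 (0.0402), and Nr4a2, with 0.44 ± 0.153 (0.0236), and each had an adjusted p of 0.914. All 3 had their lowest level in the library left out. Its omission raised their differences by construction, so the count is not separate support. The Npas4 difference rested on cell-treated library 1, since library 2, at 14.1 CPM, lay among the controls. Groups did not overlap for 3 members with higher values, Egr1, Nr4a2 and Trib1, a pseudokinase, and for 2 with lower values, Jund and Dusp4. These shares, 8.33% and 5.56%, were below the 11.3% and 11.1% of all genes.

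**Figure D4:**
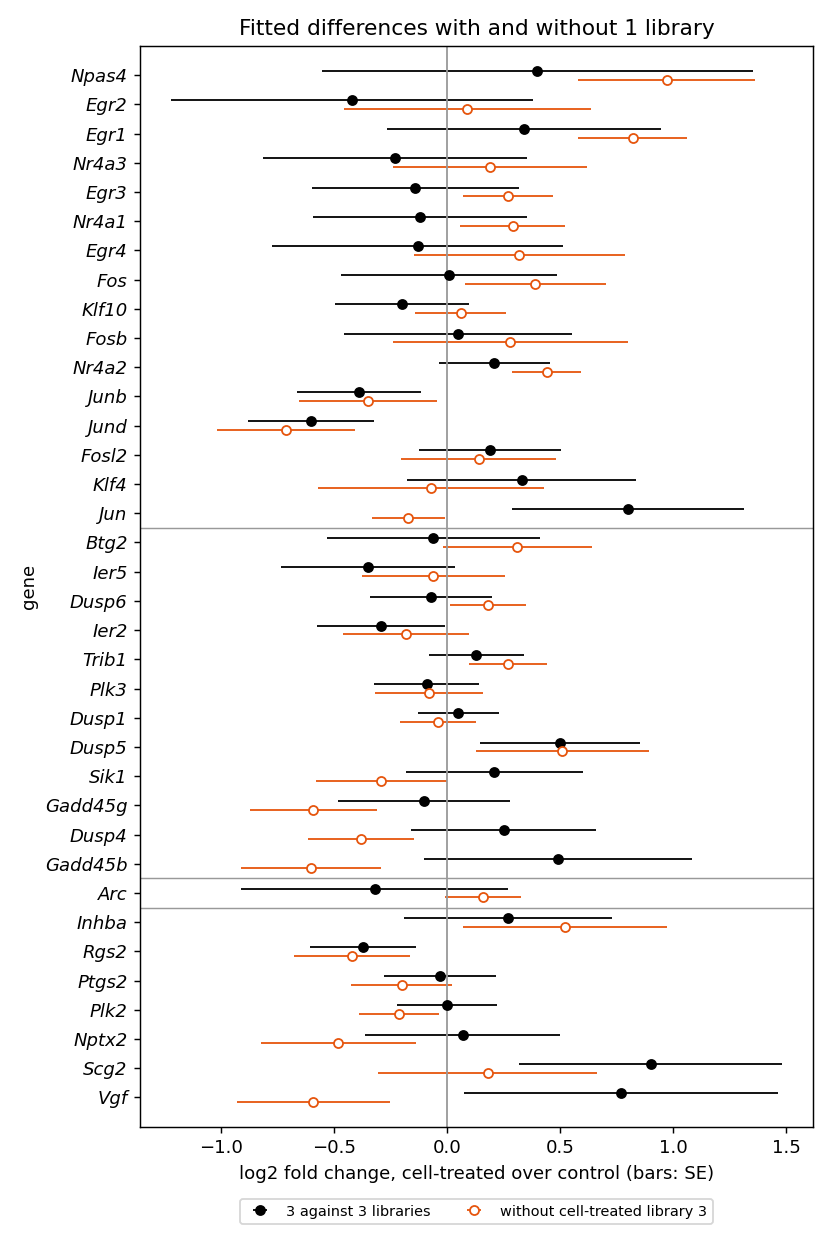
Log2 fold change of each of the 36 genes, cell-treated over control, with SE bars from edgeR, for all 6 libraries (filled) and with cell-treated library 3 left out (open), grouped by role from early transcription factors at the top to late effectors at the bottom. Of the 36 genes, 18 change sign when the library is left out; Egr1 goes from 0.34 to 0.82 and Vgf from 0.77 to -0.59.

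Of 21 genes that couple stimulus to transcription (kinases, calcineurin, CREB, SRF and MEF2 factors), all tested, 0 passed in either direction, against 0% of all genes; 13 had positive and 8 negative differences, and the median log2 fold change was 0.086. Camk2a, the abundant calcium-dependent kinase of excitatory synapses, was at 3276, 4304 and 1886 CPM in controls and at 2423, 3513 and 1674 CPM in cell-treated libraries, a log2 fold change of -0.31 ± 0.384 (SE). Leaving out control library 2 or 3 gave -0.03 or -0.58, and leaving out cell-treated library 2 or 3 gave -0.63 or -0.09. Ppp3ca, the catalytic subunit of calcineurin, ran from 1062 to 1825 CPM, with -0.07 ± 0.258, or 0.17 without control library 3. Creb1, which encodes CREB, had 32.9 CPM in cell-treated library 3 against 52.4 to 72.8 elsewhere. Rps6ka5, a kinase of CREB and histone H3, was at 14.7 against 29.3 to 39.8. Both were chosen after their values were seen. Without that library 2 of the 21 genes, Creb1 at 0.37 and Mef2c at 0.53, had higher values at an unadjusted p under 0.05 in edgeR. Each had an adjusted p of 0.914, and 0 had lower values at that level. The shares of all genes were 2.20% and 2.34%.

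Among 25 other activity-induced genes, all tested, 0 passed in either direction, 15 had positive and 10 negative differences, and the median log2 fold change was 0.203, or -0.094 without cell-treated library 3. The 2 most abundant per length were Syt4, a vesicle protein, at 0.45 ± 0.256, and Nrn1, a growth protein of neurites, at -0.11 ± 0.207 (log2 fold change, SE). Syt4 was at 0.25 without cell-treated library 3, 0.30 without control library 1 and 0.70 without control library 3, and Nrn1 at 0.08 without control library 1. The following were chosen after their values were seen. Maff, a small Maf protein, had 22.9 CPM in cell-treated library 3 against 2.17 to 5.04, and the matricellular gene Ccn1 (listed as Cyr61) at 67.7 against 7.36 to 14.6. Homer1, a scaffold of glutamate receptors, was at 106.8, 121.9 and 148.0 CPM in controls and at 190.8, 233.1 and 125.1 CPM in cell-treated libraries, and Pcsk1, a prohormone protease, at 15.6, 24.0 and 24.6 against 48.6, 40.5 and 12.9 CPM. Both were above all controls in cell-treated libraries 1 and 2 and not in library 3, as Egr1 was. In those 2 libraries Atf3, Ier3, Ccn1, Per1 and Rasd1 of the same list lay below all controls. Without cell-treated library 3, 11.3% of all genes lay above all controls and 11.1% below. On the log2 scale Homer1 differed by 0.54 ± 0.255 (SE) and Pcsk1 by 0.67 ± 0.447, or by 0.75 ± 0.190 and 1.05 ± 0.227 without library 3, with an adjusted p of 0.914 in edgeR for each. Homer1 was at 0.33 without library 2, and Pcsk1 at 0.32 without library 1. Without cell-treated library 3, Homer1 and Pcsk1 were the 2 of these 25 genes with higher values at an unadjusted p under 0.05 in edgeR. Lower values at that level were found for 3 genes, Ccn1 at -0.72, Per1 at -0.40 and Csrnp1 at -0.78, each with an adjusted p of 0.914. Among all genes 2.20% had higher and 2.34% lower values at that level.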

How the data were processed

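Polyadenylated RNA from cortex was fragmented and copied from random hexamers before PCR, per the labels' protocols, which name no strand-marking step; PCR reads are not independent molecules, so intervals cover counting error only. HISAT2 2.0.5, featureCounts and DESeq2 stand in the submitters' processing notes without roles or settings, and no genome build is named in the sources used here. The deposited count table holds whole-number counts per gene. The deposited FPKM table holds the authors' values scaled by gene length and library for the same libraries; 8 value columns of a further FPKM table with group means were not used. Deposited starts and ends equalled GENCODE M21 (GRCm38) for 33 of 36 members.

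Counts were filtered with filterByExpr (minimum count 10, minimum total 15), TMM-scaled and tested with edgeR 4.0.16 in R 4.3.3 (robust quasi-likelihood F test, two-sided, Benjamini-Hochberg, threshold 0.05). Standard errors were derived from F. Log2 CPM used a prior count of 2. Alternatives were DESeq2 1.42.0, limma 3.58.1 (voom, and log2 FPKM plus 1 or 0.1), other scalings, no filter, a replicate block and libraries left out. The fits were tested on simulated counts with the same mean level of a gene in every library of a group. No simulated library stood apart, so the simulation does not bear on that feature of these data. Members and lists were chosen with earlier results of these data known. Values per library are given for Fos, Egr1, Arc, Npas4, Nptx2, Vgf, the 3 smallest p-values in each direction, members whose groups did not overlap and the most abundant member of each role; Nr4a2, Gadd45b and others were added after their values were seen. Figures were drawn with matplotlib 3.10.9.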

Additional observations from a re-analysis of the deposited data

How the results depend on the processing

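The count of members called stayed at 0 under all 16 alternatives. Over all genes the count of calls was 9 with DESeq2 and 1 without a low-count filter, against 0. Role medians and the early minus late difference moved by less than 1 SD of the library scores in every setting, yet the difference ran from -0.68 to 0.34 with single libraries left out. Early transcription factors had medians from -0.58 to 0.23 and late effectors from -0.21 to 0.41 in those settings. Of 36 members, 28 changed sign in at least 1 setting, 18 of them without cell-treated library 3. With 3 libraries a group and 1 that stands apart, differences of this size cannot be resolved.

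Of genes whose fold change is given, some changed sign. With single libraries left out, log2 fold changes ran from -0.68 to 0.39 for Fos, -0.17 to 1.15 for Jun, -0.70 to 0.97 for Npas4 and -0.60 to 0.85 for Gadd45b. No sign changed for Egr1, from 0.01 to 0.82, Ier5, from -0.69 to -0.06, Jund, from -0.76 to -0.24, Junb, from -0.58 to -0.08, Rgs2, from -0.52 to -0.08, Dusp5, from 0.18 to 0.74, or Scg2, from 0.18 to 1.38. Signs did change in the ranges of -0.77 to 0.16 for Arc, -0.48 to 0.41 for Nptx2, -0.59 to 1.18 for Vgf, -0.24 to 0.17 for Ppp3ca and -0.24 to 0.08 for Nrn1. Without both libraries numbered 3 the values were -0.23 for Jun, 0.17 for Ier5, -0.30 for Gadd45b, 0.15 for Arc, -0.48 for Nptx2, -0.23 for Vgf and 0.17 for Ppp3ca. For Fos, Egr1 and Npas4 they were -0.23, -0.05 and -0.80 with voom, -0.17, -0.02 and -0.14 on log2(FPKM + 1) and -0.21, -0.04 and -0.62 on log2(FPKM + 0.1). Upper quartile scaling gave -0.01 for Fos. The cause was not tested.

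Same-numbered libraries did not deviate together (correlations of deviations from the group means of -0.277, 0.0815 and 0.0728 for numbers 1, 2 and 3). Libraries of unlike number had correlations from -0.198 to 0.174. No pairing by number was seen, but 3 libraries a group cannot exclude it. With the replicate number as a block 0 members were called, Fos was at -0.23 and Npas4 at -0.46, and the early minus late difference was -0.34 with an SD of 1.31 over the 3 pairs.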
